A study of Mus musculus with 28 samples.

Results

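Klf2, Klf3, Foxo1, Lef1, S1pr1 and Ccr7 are 6 genes of the resting state of T cells and of their traffic through lymph nodes. They were picked by symbol, as the probe sets whose platform annotation gives one of these names, and they make up 11 of the 22690 probe sets on the array and 6 of the 12393 genes tested. Klf3 has 3 probe sets, Foxo1 has 4 and each of the others has 1. Where a gene has several, it is represented by the one with the highest mean over all 28 arrays, and the others are described separately.

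The arrays measured sorted mouse T cells of the C57BL/6N strain, either CD4+ cells with the AND T cell receptor transgene or CD8+ cells with the OT1 transgene, so that each cell type carried 1 receptor of known specificity. Differences between CD4 and CD8 cells therefore cannot be told apart from differences between the receptors. In antigen-expressing hosts they also cannot be told apart from the antigen each receptor meets. All cells, controls included, spent 2 days in culture with 5 ng/ml IL7, in untreated plates (unstimulated) or in plates with anti-CD3 and anti-CD28 antibodies bound at 10 µg/ml (stimulated). Day 2 arrays came from these cultures, with 3 arrays for each of the 4 groups. For day 5 the cells went into mice for another 3 days and were sorted from spleen and subcutaneous lymph nodes: unstimulated cells in antigen-free hosts (2 CD4 and 3 CD8 arrays), stimulated cells in antigen-free hosts (transient stimulation, 2 CD4 and 3 CD8 arrays) and stimulated cells in antigen-expressing hosts, labelled dtg-O or -M (continuous stimulation, 3 arrays for each cell type). Replicates are described as independent, and the RNA was amplified in 2 rounds. Values are log2 signals, in which a difference of 1 is a 2-fold change, and a gene was called in a comparison when its limma p, adjusted over all genes tested, was below 0.05. These are levels in sorted populations, so fewer cells with a transcript and less of it in each cell cannot be told apart.

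Resting T cells circulate between blood and lymph nodes. Foxo1 is a forkhead transcription factor that Akt, a kinase downstream of the T cell receptor and of PI3 kinase, phosphorylates and moves out of the nucleus. In resting cells Foxo1 drives the transcription of Klf2, a zinc finger factor, and Klf2 in turn drives S1pr1, the receptor for sphingosine 1-phosphate with which T cells leave lymph nodes. Ccr7, the receptor for the chemokines of the lymph node T cell zone, brings cells in. Klf3 is a related zinc finger factor that mostly represses and can bind the same sites, and Lef1 is a high mobility group factor of naive and memory precursor cells.

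The promoters of 4 of the 6 genes are given here, as regions where transcription factors such as those named above could bind. Each window is the 250 bases before the annotated start in the RefSeq mouse annotation, build GRCm38.p6, written 5′ to 3′ on the strand of the gene. Capitals mark the letters CACCC or GGGTG (the core to which Klf factors bind), TGTTNAC or GTNAACA (a loose forkhead core) and the MEF2 consensus (a palindrome for MEF2 factors, with A or T at its inner positions). No marked matches overlap, and both strands were searched.
Klf2 (chr8:72318812-72319061, + strand): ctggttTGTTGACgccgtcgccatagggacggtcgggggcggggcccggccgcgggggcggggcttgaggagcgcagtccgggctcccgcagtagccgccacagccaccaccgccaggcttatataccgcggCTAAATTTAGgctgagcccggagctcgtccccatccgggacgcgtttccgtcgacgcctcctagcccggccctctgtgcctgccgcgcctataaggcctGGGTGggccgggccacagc
Klf3 (chr5:64803271-64803520, + strand): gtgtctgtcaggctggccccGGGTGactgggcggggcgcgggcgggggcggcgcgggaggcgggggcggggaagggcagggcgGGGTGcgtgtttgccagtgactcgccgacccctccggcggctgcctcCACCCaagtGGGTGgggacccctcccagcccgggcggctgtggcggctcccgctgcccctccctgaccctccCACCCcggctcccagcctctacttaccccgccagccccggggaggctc
Lef1 (chr3:131110047-131110296, + strand): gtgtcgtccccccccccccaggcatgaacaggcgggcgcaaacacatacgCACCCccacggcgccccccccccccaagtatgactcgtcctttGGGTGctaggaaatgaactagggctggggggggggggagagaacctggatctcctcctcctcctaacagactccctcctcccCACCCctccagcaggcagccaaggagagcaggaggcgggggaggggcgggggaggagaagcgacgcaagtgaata
Foxo1 (chr3:52268087-52268336, + strand): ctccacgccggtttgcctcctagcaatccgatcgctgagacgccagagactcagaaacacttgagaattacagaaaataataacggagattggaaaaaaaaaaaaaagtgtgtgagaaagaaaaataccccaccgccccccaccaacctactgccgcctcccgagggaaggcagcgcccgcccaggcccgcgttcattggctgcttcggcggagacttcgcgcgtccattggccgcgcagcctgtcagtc
Lef1 has 4 starts in the table and the outermost was used. The promoters of S1pr1 and Ccr7 were not used here. The Klf2 window held 1 match to the loose forkhead core, whose first base lies at -244 from the start, the MEF2 consensus at -118 and 1 Klf core at -19. A loose forkhead core occurs in 8.69% of the 32851 mouse promoters of the same length and the MEF2 consensus in 0.508%. The Klf3 window held 5 Klf cores, the Lef1 window 3 and the Foxo1 window 0, where 52% of all promoters hold at least 1. The share of promoters with as many as 3 or 5 was not counted. The share of G and C was 78.4% for Klf3, 71.2% for Klf2, 66.4% for Lef1 and 56.0% for Foxo1. Its median over all promoters was 52.4%, and the shares of promoters with a match were not adjusted for it. The stricter forkhead core TGTTTAC, present in 3.17% of promoters, was in none of the 4 windows, and CTTTG, a core of Lef1 itself present in 48.6%, was in that of Lef1 alone, at -161, where its last base is the first of the Klf core at -157. These are matches of letters, and binding was not measured.

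Several arrays differed from the rest in ways that touch these genes. The third unstimulated day 2 array of each cell type had a median signal of 4.83 (CD4) and 4.97 (CD8), against 6.29 to 6.53 on the other 26 arrays. Both also went against their labels: on the third array labelled CD4, Cd4 read 5.40 and Cd8a 9.88, and on the third array labelled CD8, Cd8a read 5.78 and Cd8b1 4.79. The other unstimulated arrays read 8.77 and 8.41 for Cd4 in CD4 cells, and 11.93 and 11.65 for Cd8a in CD8 cells. The day 2 differences of the 6 genes are therefore given with and without these 2 arrays. The beta-actin control is probed at its 3′ and 5′ ends, and the log2 signal at the 3′ end minus that at the 5′ end, called here the beta-actin difference, is large where RNA or its amplified product is short. On day 2 it was 2.28 to 4.30 without stimulation and 1.11 to 1.69 with it. On day 5 it was 2.42 to 2.73 in transient CD4 cells and 1.92 to 2.44 in unstimulated CD8 cells, against 0.31 to 1.02 in the other 4 groups. The mean of 10 B cell markers was 6.78 to 8.24 in transient CD4 cells and 4.88 to 6.58 on all other day 5 arrays, that of 12 myeloid markers varied from 5.11 to 9.53 within and between day 5 groups, and the mean of 9 general T cell markers was 10.83 to 11.24 in transient CD4 and unstimulated CD8 cells against 11.24 to 11.85 in the others.

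**Figure D1:**
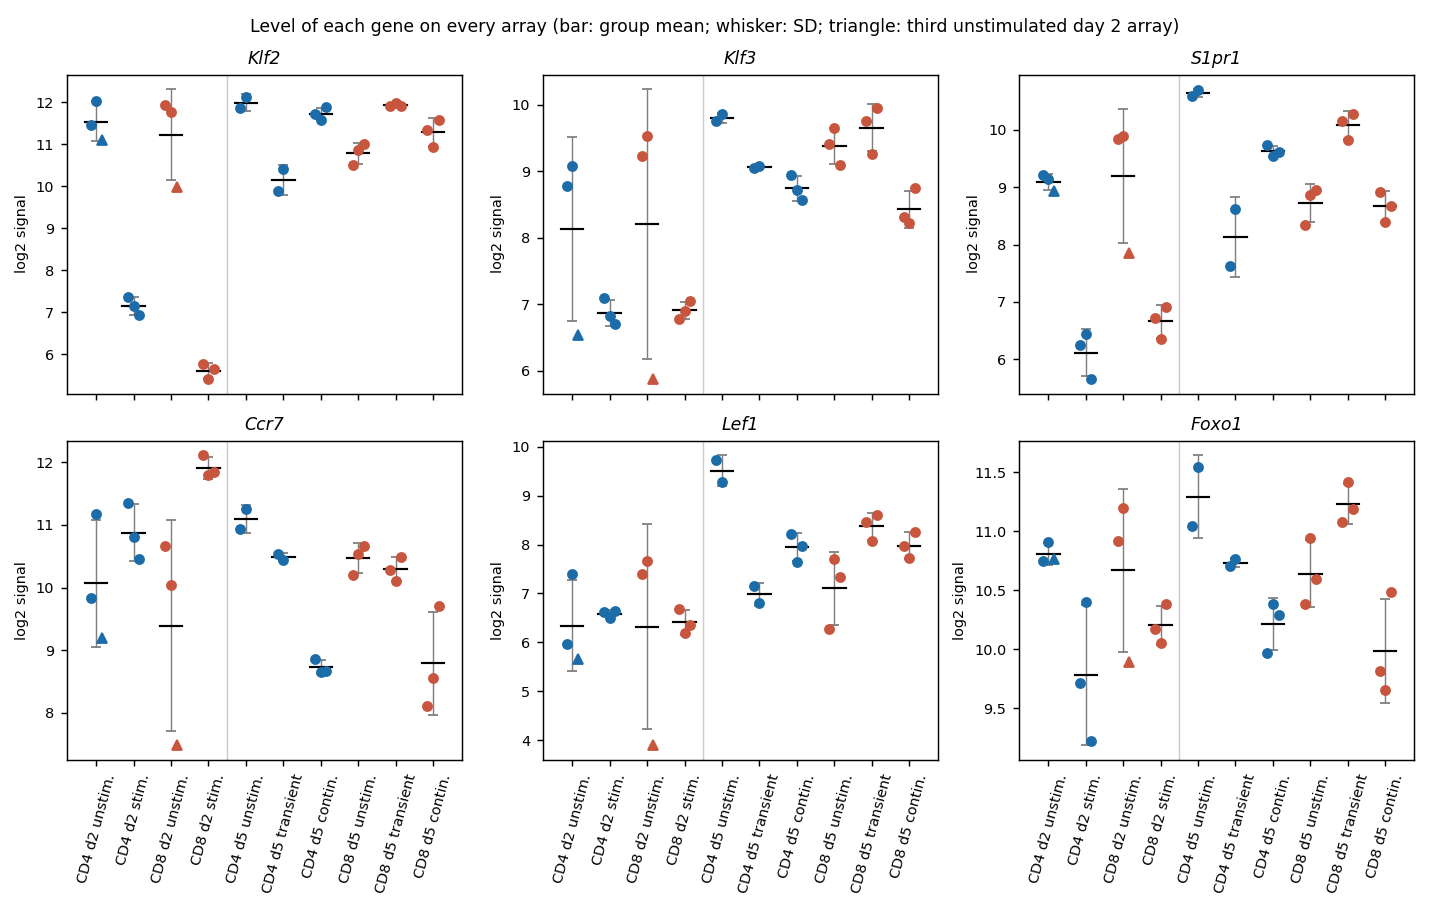
Log2 signal (y axis) of each of the 6 genes on every array, by cell type, day and condition (x axis); blue points are CD4 arrays, red points CD8 arrays, black bars group means, whiskers SD, and triangles the third unstimulated day 2 arrays. Klf2 lay between 5.42 and 7.36 on all 6 stimulated day 2 arrays and at or above 9.90 on every other array, whereas Ccr7 reached its highest levels on stimulated CD8 arrays of day 2.

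The first question was how 2 days of receptor stimulation changed these genes in culture. Klf2 fell in both cell types, by more than any other member. In CD4 cells it read 11.46, 12.04 and 11.12 without and 7.36, 7.16 and 6.93 with stimulation, a difference of -4.38 (SE 0.51, adjusted p = 0.00021), or 20.9-fold. Unstimulated CD8 arrays read 11.93, 11.78 and 9.98 and stimulated ones 5.78, 5.42 and 5.65, a difference of -5.62 (SE 0.51, adjusted p = 3.21e-05), or 49.0-fold. The groups did not overlap in either cell type, and among 12393 genes this was the fifth largest fall in CD4 cells and the largest in CD8 cells. Without the third unstimulated arrays Klf2 was at -4.59 in CD4 cells (adjusted p = 4.56e-06) and at -6.24 in CD8 cells (adjusted p = 9.05e-07), so the CD8 fold change was over 1.5 times as large.

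S1pr1, which Klf2 controls, fell with it. Its CD4 arrays read 9.20, 9.14 and 8.93 without and 6.25, 6.45 and 5.66 with stimulation (-2.97, SE 0.53, adjusted p = 0.00345). Its CD8 arrays read 9.84, 9.89 and 7.85 against 6.73, 6.35 and 6.92 (-2.53, SE 0.53, adjusted p = 0.0104). Every stimulated array lay below every unstimulated one in both cell types. The CD8 call was lost without the second stimulated array (-2.37, adjusted p = 0.062). Leaving out the third unstimulated arrays gave -3.05 in CD4 cells (adjusted p = 3.73e-05) and -3.20 in CD8 cells (adjusted p = 5.61e-05), a larger CD8 difference.

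Ccr7 went the other way. It read 10.66, 10.03 and 7.49 in unstimulated and 12.12, 11.79 and 11.84 in stimulated CD8 cells, a difference of 2.52 (SE 0.72, adjusted p = 0.0473), the highest level of this gene in any of the 10 groups. This call was lost without the third unstimulated array (1.57, adjusted p = 0.097) and without any 1 of the stimulated arrays (adjusted p = 0.14, 0.13 and 0.13 in order of replicate), and was held with the third unstimulated CD4 array left out as well (1.57, adjusted p = 0.0161). In CD4 cells Ccr7 read 9.84, 11.18 and 9.20 against 11.36, 10.81 and 10.45, groups that overlap (0.80, SE 0.72, adjusted p = 0.572, and 0.37 without the third unstimulated arrays). In CD8 cells the receptor that brings cells into lymph nodes was higher and the one that lets them out was lower.

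Klf3, Foxo1 and Lef1 had no call on day 2 with all arrays. Klf3 read 8.78, 9.08 and 6.54 in unstimulated CD4 cells and 9.22, 9.53 and 5.87 in unstimulated CD8 cells, against 6.69 to 7.08 on the 6 stimulated arrays. The third unstimulated array thus lay below all stimulated arrays in both cell types, while the first and second lay above all of them. Without these 2 arrays the main Klf3 probe set fell by 2.06 in CD4 cells (adjusted p = 6.38e-05) and by 2.47 in CD8 cells (adjusted p = 5.03e-05). In CD4 cells the Klf3 probe set 1421604_a_at was higher with stimulation, at 4.43, 5.26 and 4.93 against 5.96, 5.38 and 6.80. With all arrays it was at 1.17 in CD4 and -0.39 in CD8 cells, and 1431630_a_at at -0.36 and -0.81, with no call. Foxo1 read 10.74, 10.91 and 10.77 in unstimulated and 9.72, 10.40 and 9.22 in stimulated CD4 cells, and 10.92, 11.20 and 9.89 against 10.17, 10.05 and 10.38 in CD8 cells. Without the third unstimulated arrays the fall of its main probe set was called in CD4 cells (-1.05, adjusted p = 0.0141) and not in CD8 cells (-0.86, adjusted p = 0.0518). The direction depends on the probe set: with all arrays, 1416982_at read 7.36 to 8.11 in unstimulated and 8.54 to 9.67 in stimulated CD4 cells, higher with no overlap (1.42, SE 0.55, adjusted p = 0.123 over all probe sets), and was at 0.99 in CD8 cells with no call. Another, 1416981_at, was at 0.23 and 0.53 with no call. Lef1 lay between 3.90 and 7.66 without stimulation and between 6.19 and 6.68 with it, and without the third arrays it was lower in stimulated CD8 cells (-1.12, adjusted p = 0.0369) and not called in CD4 cells (-0.09, adjusted p = 0.835).

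In all, 2 of the 6 genes fell in CD4 cells and 2 fell and 1 rose in CD8 cells. Over all genes, 11.4% were called in CD4 cells, 10.7% up and 0.718% down, and 8.35% in CD8 cells, 7.49% up and 0.863% down. With the third unstimulated array of each cell type left out, 4 members were called in CD4 cells and 5 in CD8 cells, where 8139 and 4691 of the 12393 genes were called. The split into rises and falls depends on scaling: 1320 genes rose and 89 fell in CD4 cells as deposited, and 2509 rose and 2056 fell after centring each array on its median, which moved the median of all genes from 0.14 to -0.23. Klf2 and S1pr1 fell under both scalings. The beta-actin difference was higher on unstimulated arrays, and with it as a covariate, a fit chosen after seeing the data, Klf2 and S1pr1 were lower still (CD8 values -7.22 and -3.93), while Ccr7 was lower in stimulated CD4 cells (-3.65, adjusted p = 0.0235) and no longer called in CD8 cells (-0.16).

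The response of CD8 cells minus that of CD4 cells was called for none of the 6 genes on day 2, and for 0% of all genes (limma; 70 genes and 0 members had an unadjusted p below 0.05). The largest such differences were those of Ccr7 (1.72, 95% interval -0.48 to 3.92) and Klf2 (-1.23, interval -2.79 to 0.33). With the third unstimulated array of each cell type left out, the deeper fall of Klf2 in CD8 cells was called (-1.65, SE 0.31, adjusted p = 0.0391). Stimulated CD8 arrays also lay below all stimulated CD4 arrays for Klf2 (-1.54), with no call in the fit of all 12 arrays (0.0242% of genes called, and 147 genes with an unadjusted p below 0.05, Klf2 among them) and a call without the third unstimulated arrays (adjusted p = 0.00917).

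**Figure D2:**
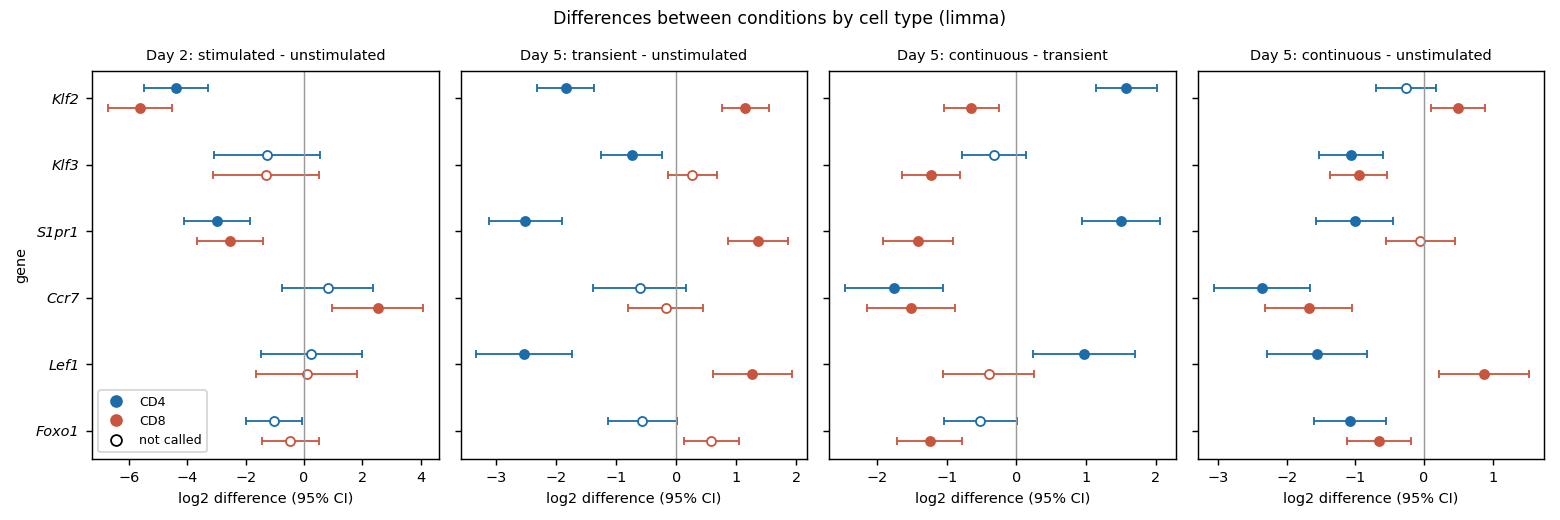
Log2 difference with its 95% confidence interval (x axis) for each of the 6 genes (y axis) in the 4 comparisons made in both cell types; blue is CD4, red is CD8, and open circles are not called. Klf2, S1pr1 and Lef1 fell below 0 in CD4 and rose above 0 in CD8 cells for transient against unstimulated, and Ccr7, Klf3 and Foxo1 lay below 0 in both cell types for continuous against unstimulated.

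On day 5 Klf2 read 9.90 or above on every array, far above stimulated day 2 cells, though transient CD4 cells (9.90 and 10.41) lay below all unstimulated CD4 cells of day 2 (11.12 to 12.04). The comparison of transient with unstimulated cells asks what a stimulus of 2 days leaves behind after 3 days without antigen. In CD4 cells 4 of the 6 genes were lower and none higher, in CD8 cells 3 were higher and none lower. Over all genes 22.8% were called in CD4 cells (9.66% up, 13.1% down) and 31.8% in CD8 cells (16.3% up, 15.5% down).

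S1pr1 read 10.59 and 10.69 in unstimulated and 7.63 and 8.62 in transient CD4 cells, a difference of -2.51 (SE 0.28, adjusted p = 5.09e-05), or 5.70-fold. Klf2 read 11.86 and 12.13 against 9.90 and 10.41 (-1.84, SE 0.22, adjusted p = 8.5e-05). Lef1 read 9.74 and 9.28 against 7.15 and 6.81 (-2.53, SE 0.37, adjusted p = 0.000327). For each of these the 2 groups lay well apart. Klf3 read 9.75 and 9.86 against 9.05 and 9.07 (-0.74, SE 0.23, adjusted p = 0.0356), a call that was lost without any one of these 4 arrays (adjusted p = 0.10 to 0.16) and with a replicate block (adjusted p = 0.052).

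CD8 cells moved in the opposite direction. S1pr1 read 8.34, 8.86 and 8.95 in unstimulated and 10.14, 9.82 and 10.28 in transient CD8 cells (1.36, SE 0.23, adjusted p = 0.000574), or 2.57-fold. Klf2 read 10.50, 10.86 and 11.00 against 11.91, 11.98 and 11.92 (1.15, SE 0.18, adjusted p = 0.000332). Lef1 read 6.27, 7.71 and 7.34 against 8.46, 8.07 and 8.60 (1.27, SE 0.30, adjusted p = 0.00567). All transient arrays lay above all unstimulated ones for these 3 genes. Foxo1 was 0.59 higher (SE 0.22, adjusted p = 0.0521) and was called with the replicate number as a block (adjusted p = 0.032). Ccr7 had no call in CD4 cells (-0.61, adjusted p = 0.258) or CD8 cells (-0.18, adjusted p = 0.688).

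The difference between the 2 cell types, which also differ in their receptor, was tested directly. It was called for 5 of the 6 genes, where 37.5% of all genes were called (18.5% up, 18.9% down). The transient effect in CD8 minus that in CD4 cells was 3.87 (SE 0.37) for S1pr1, 3.80 (SE 0.48) for Lef1 and 2.99 (SE 0.29) for Klf2, and smaller for Foxo1 (1.15) and Klf3 (1.01). Those of Foxo1 and Klf3 were lost without the second unstimulated CD4 array (adjusted p = 0.092 and 0.061). The cell type differences of these 2 genes also depended on the probe set. For Foxo1, 1416982_at was at -0.76 with no call and 1416981_at at 1.66 with a call. For Klf3, 1431630_a_at was at 0.43 with no call and 1421604_a_at at 3.11 with a call. The levels themselves differed in both conditions. Unstimulated CD8 cells were below unstimulated CD4 cells for Lef1 (-2.40), S1pr1 (-1.92) and Klf2 (-1.21), where 28.7% of all genes were called (14.4% up, 14.3% down). Transient CD8 cells were above transient CD4 cells for S1pr1 (1.95), Klf2 (1.78) and Lef1 (1.40), where 27.1% were called (15.4% up, 11.7% down). The Lef1 call was lost without the second transient CD4 array (1.23, adjusted p = 0.066).

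The groups with low Klf2, S1pr1 and Lef1 on day 5, transient CD4 and unstimulated CD8 cells, are also those with a high beta-actin difference. Over these 5 arrays against the other 11, Klf2 read 9.90 to 11.00 against 10.93 to 12.13, S1pr1 7.63 to 8.95 against 8.39 to 10.69 and Lef1 6.27 to 7.71 against 7.65 to 9.74. Ccr7 (10.20 to 10.67 against 8.11 to 11.25), Klf3 and Foxo1 lay within the range of the others. In continuously stimulated CD8 cells, where the beta-actin difference was 0.31 to 0.56, S1pr1 read 8.39 to 8.92. Its mean there was 8.66, against 8.72 in unstimulated CD8 cells and 8.13 in transient CD4 cells. With the beta-actin difference as a covariate, chosen after seeing the data, the transient differences were -0.55 for S1pr1, -1.19 for Klf2 and -0.71 for Lef1 in CD4 cells and -0.21, 0.63 and -0.18 in CD8 cells. No member was called in either comparison, nor in the difference between them (0.35, 1.82 and 0.53). The differences of these 3 genes thus became smaller in size, besides losing their calls. Those of Foxo1 became larger, at -1.59 in CD4 cells, 1.41 in CD8 cells and 2.99 for the difference between them, without a call. The covariate nearly follows the groups, so the standard errors also grew. Its part in the result cannot be told apart from that of the groups and was not tested further. B cell markers rose with the CD4 comparison (6 of 10 called, median 1.97), general T cell markers fell (4 of 9 called) and rose with the CD8 comparison (5 of 9 called). Markers of CD4 T cells fell too in the CD4 comparison (2 of 3 called, median -1.47): Cd4 itself read 9.60 and 9.22 in unstimulated and 7.68 and 7.88 in transient CD4 cells. The part of these markers was not tested either.

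**Figure D3:**
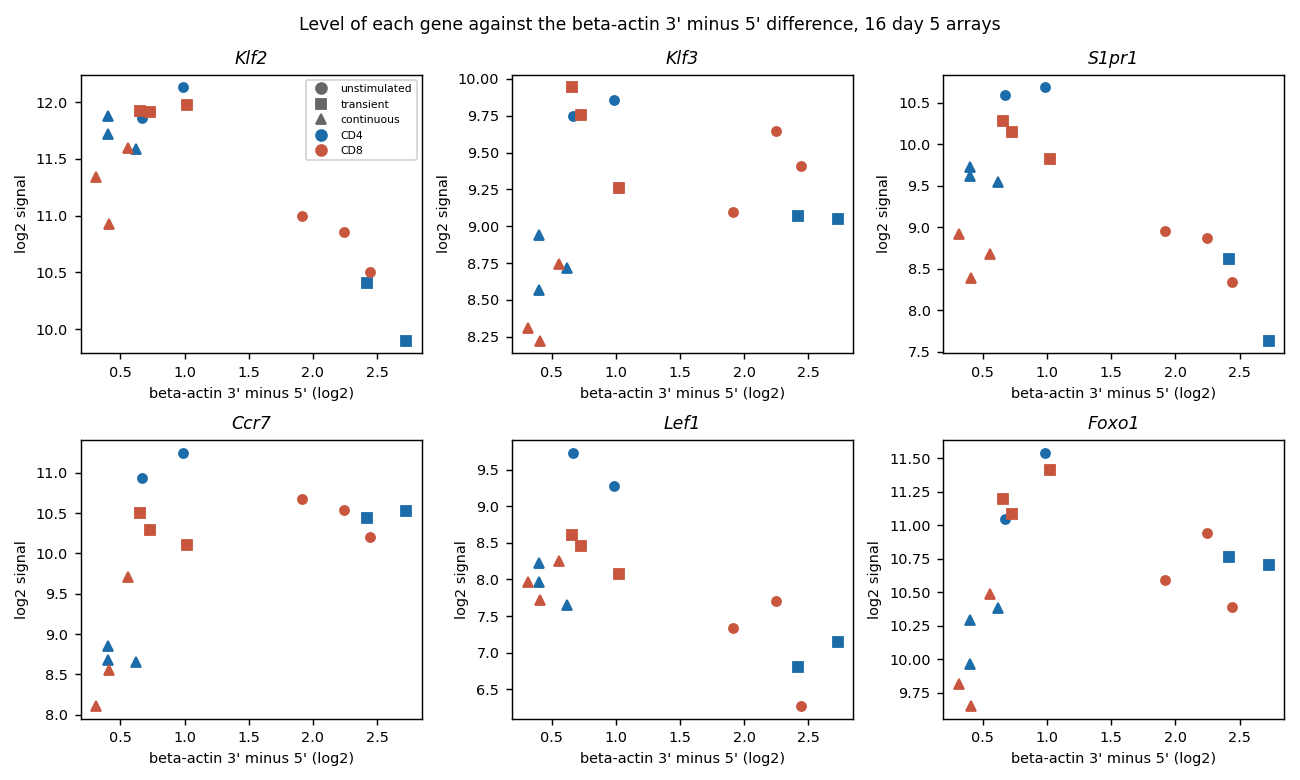
Log2 signal of each gene (y axis) against the beta-actin difference, log2 signal at the 3′ end minus the 5′ end (x axis), on the 16 day 5 arrays; blue is CD4, red CD8, circles unstimulated, squares transient, triangles continuous. The 5 arrays of transient CD4 and unstimulated CD8 cells sit apart on the right, at 1.92 to 2.73, and are low for Klf2, S1pr1 and Lef1 and intermediate for Ccr7, Klf3 and Foxo1.

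Continuous stimulation was compared with unstimulated cells to see the effect of the stimulus in culture followed by antigen in the host. Ccr7 showed the largest change and it was lower in both cell types. It read 10.93 and 11.25 in unstimulated and 8.86, 8.65 and 8.67 in continuously stimulated CD4 cells (-2.36, SE 0.33, adjusted p = 0.000211), or 5.15-fold. In CD8 cells it read 10.20, 10.54 and 10.67 against 8.11, 8.56 and 9.70 (-1.68, SE 0.29, adjusted p = 0.000363). The groups did not overlap in either cell type, although the third continuous CD8 array lay over 1 log2 unit above the other two. Klf3 read 9.75 and 9.86 against 8.94, 8.72 and 8.57 in CD4 cells (-1.06, SE 0.21, adjusted p = 0.00315), and 9.41, 9.64 and 9.09 against 8.31, 8.22 and 8.75 in CD8 cells (-0.95, SE 0.19, adjusted p = 0.00109). Foxo1 read 11.04 and 11.54 against 9.97, 10.38 and 10.29 in CD4 cells (-1.08, SE 0.24, adjusted p = 0.00585). It was lower in CD8 cells too, where 10.39, 10.94 and 10.59 against 9.81, 9.65 and 10.49 overlapped (-0.66, SE 0.22, adjusted p = 0.0227). The Foxo1 difference between the cell types was not called (0.42, adjusted p = 0.394). Other Foxo1 probe sets differed: 1416982_at was at -0.61 in CD4 and -1.06 in CD8 cells, and 1416981_at at -0.98 and -0.25.

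The other 3 genes were not called alike in the 2 cell types. S1pr1 was lower in CD4 cells, at 9.73, 9.54 and 9.61 (-1.01, SE 0.26, adjusted p = 0.0132), and not called in CD8 cells, at 8.92, 8.39 and 8.68 (-0.06, interval -0.56 to 0.44). Lef1 was lower in CD4 cells, at 8.22, 7.65 and 7.96 (-1.57, SE 0.34, adjusted p = 0.00479), and higher in CD8 cells, at 7.96, 7.72 and 8.25 (0.87, SE 0.30, adjusted p = 0.0292). Klf2 was not called in CD4 cells, at 11.72, 11.59 and 11.88 (-0.27, adjusted p = 0.438), and slightly higher in CD8 cells, at 11.34, 10.93 and 11.59 (0.50, SE 0.18, adjusted p = 0.0373) although the groups overlapped. Lef1 was the only one of the 6 for which the difference between the cell types was called (2.44, SE 0.45, adjusted p = 0.0023; Klf2 0.77, 0.0663, and S1pr1 0.95, 0.0713), where 19.7% of all genes were called (11.3% up, 8.46% down). In total 5 members fell in CD4 cells, where 20.7% of all genes were called (9.92% up, 10.8% down), and in CD8 cells 3 fell and 2 rose, where 47.3% were called (21.4% up, 25.9% down).

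Calls in CD4 cells rested on 2 unstimulated arrays: without the first, S1pr1 (adjusted p = 0.064) and Lef1 (0.065) were lost, and without the second, S1pr1 (0.095) and Foxo1 (0.097). In CD8 cells Klf2 lost its call without the first or second unstimulated or the first or the third continuous array (adjusted p = 0.057 to 0.15), Lef1 without the first unstimulated or the first or the third continuous array (0.064 to 0.12), and Foxo1 without the second unstimulated or the first or second continuous array (0.082 to 0.11). The beta-actin difference was 0.67 to 0.98 in unstimulated and 0.40 to 0.62 in continuously stimulated CD4 cells, and with it as a covariate 4 of the 5 CD4 calls were kept, with Foxo1 at -0.87 (adjusted p = 0.052). None of the 9 general T cell, 10 B cell or 12 myeloid markers was called in the CD4 comparison, while 1 of 3 CD4 T cell markers and 1 of 4 dendritic cell markers fell. In the CD8 comparison the beta-actin difference was 1.92 to 2.44 against 0.31 to 0.56, and no member was called with it (Ccr7 -1.40, Klf3 -0.81). There 5 of 9 T cell markers rose and 2 fell, and 5 of 9 stroma and endothelium markers fell, which was not tested as a part of the result.

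Continuous against transient stimulation addresses the antigen met during the last 3 days. In CD8 cells 5 of the 6 genes fell and none rose, where 27.2% of all genes were called (13.6% up, 13.6% down). S1pr1 fell from 10.14, 9.82 and 10.28 to 8.92, 8.39 and 8.68 (-1.42, SE 0.23, adjusted p = 0.000567), or 2.67-fold. Ccr7 fell from 10.29, 10.11 and 10.50 to 8.11, 8.56 and 9.70 (-1.51, SE 0.29, adjusted p = 0.00169), or 2.84-fold. Foxo1 fell from 11.08, 11.41 and 11.19 to 9.81, 9.65 and 10.49 (-1.24, SE 0.22, adjusted p = 0.000805) and Klf3 from 9.76, 9.26 and 9.94 to 8.31, 8.22 and 8.75 (-1.23, SE 0.19, adjusted p = 0.000414). Klf2 fell least, from 11.91, 11.98 and 11.92 to 11.34, 10.93 and 11.59 (-0.65, SE 0.18, adjusted p = 0.0165), and this call was lost without the second continuous array (-0.47, adjusted p = 0.088). None of these 5 genes had overlapping groups. Lef1 did overlap and had no call (-0.40, adjusted p = 0.389). The beta-actin difference was low in both groups, at 0.31 to 0.56 and 0.66 to 1.02, and all 5 calls were kept with it as a covariate, with S1pr1 at -1.84 and Ccr7 at -1.45. No B cell or myeloid marker was called in this comparison, while of 9 general T cell markers 1 rose and 4 fell and 1 of 4 dendritic cell markers fell, a shift whose part was not tested.

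In CD4 cells the same comparison gave 3 rises and 1 fall, where 34.1% of all genes were called (17.6% up, 16.5% down). Klf2 rose from 9.90 and 10.41 to 11.72, 11.59 and 11.88 (1.58, SE 0.20, adjusted p = 5.8e-05) and S1pr1 from 7.63 and 8.62 to 9.73, 9.54 and 9.61 (1.50, SE 0.26, adjusted p = 0.00052). Lef1 rose from 7.15 and 6.81 to 8.22, 7.65 and 7.96 (0.96, SE 0.34, adjusted p = 0.0407), a call lost with a replicate block (adjusted p = 0.077) and without either transient array or the first or the third continuous array (adjusted p = 0.075 to 0.21). Ccr7 fell from 10.53 and 10.44 to 8.86, 8.65 and 8.67 (-1.75, SE 0.33, adjusted p = 0.000916). Klf3 (-0.32, adjusted p = 0.281) and Foxo1 (-0.52, adjusted p = 0.117) had no call. The transient group has the high beta-actin difference and the high B cell markers: 9 of 10 B cell and 2 of 4 dendritic cell markers fell, and 2 of 3 CD4 T cell markers rose. With the beta-actin covariate no member was called, S1pr1 stood at -0.85, Lef1 at -1.22 and Ccr7 at -1.42.

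For this contrast the difference between cell types was called for S1pr1 (-2.92, SE 0.35), Klf2 (-2.23, SE 0.27) and Klf3 (-0.91, SE 0.29, adjusted p = 0.042), where 18.9% of all genes were called (8.13% up, 10.7% down). The Klf3 call was lost without any one of 8 of the 11 arrays of this contrast (adjusted p = 0.068 to 0.11) and with a replicate block (0.071). That of Ccr7 was 0.25 (interval -0.70 to 1.19): its fall with antigen was called in both cell types, and the data leave a difference of up to about 1 log2 unit between them. Between continuously stimulated CD8 and CD4 cells S1pr1 was the only one of the 6 called (-0.96, SE 0.23, adjusted p = 0.0169), where 11.2% of all genes were called (6.58% up, 4.62% down), a call lost without the first continuous CD4 (adjusted p = 0.062) or the second continuous CD8 array (0.077).

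Across the 16 day 5 arrays the genes formed 2 sets. Klf2, S1pr1 and Lef1 ran together (r = 0.90 for Klf2 with S1pr1, 0.80 for Klf2 with Lef1, 0.82 for S1pr1 with Lef1), and so did Klf3, Ccr7 and Foxo1 (0.85 for Klf3 with Ccr7, 0.85 for Klf3 with Foxo1, 0.83 for Ccr7 with Foxo1). Pairs across the sets ran from -0.08 (Klf2 with Ccr7) to 0.54 (Klf3 with S1pr1). These are descriptions over arrays that share their groups, and the first set follows the beta-actin difference as described. The sets differ in their order of groups: Klf2, S1pr1 and Lef1 were lowest on day 5 in transient CD4 cells, Ccr7, Klf3 and Foxo1 in a continuously stimulated group, and all 6 had their highest day 5 mean in unstimulated CD4 cells. On the 10 day 2 arrays without the third unstimulated ones, the sets were not the same: Klf3 ran with Klf2 (r = 0.96) and S1pr1 (0.98) as well as with Foxo1 (0.84), Foxo1 ran with S1pr1 (0.90), and Ccr7 ran against Klf2 (-0.71).

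**Figure D4:**
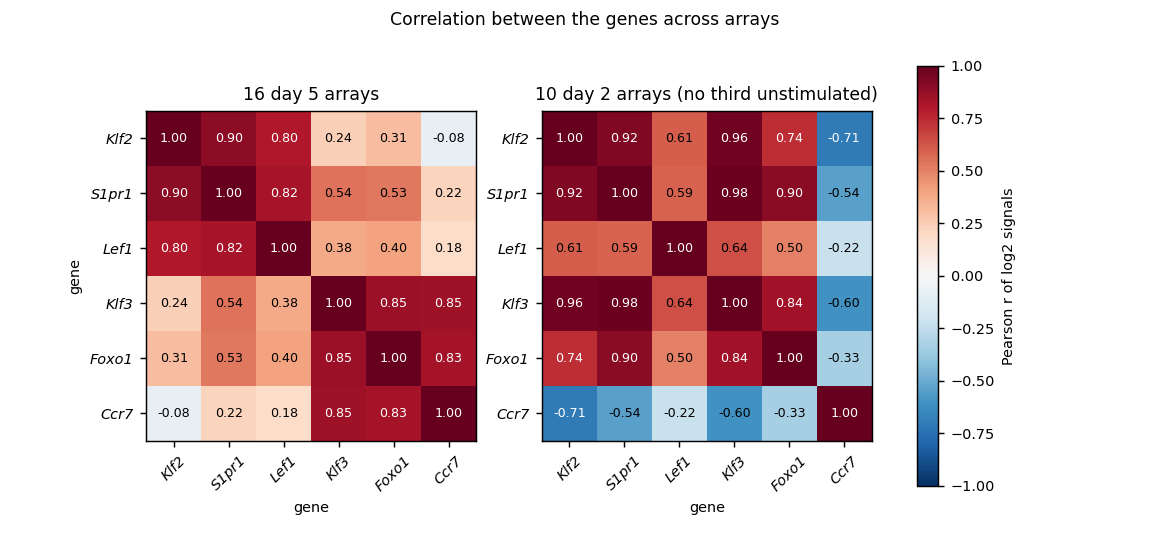
Pearson correlation of log2 signals between the 6 genes (both axes) over the 16 day 5 arrays (left) and over 10 day 2 arrays without the third unstimulated ones (right); red is positive, blue negative. On day 5 the genes split into Klf2, S1pr1 and Lef1 (0.80 to 0.90) and Klf3, Foxo1 and Ccr7 (0.83 to 0.85), and on day 2 Ccr7 is negative with all others.

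The order of all 10 groups places this in view. Klf2 stood highest in unstimulated CD4 cells of day 5 (mean 12.00 ± 0.19, SD, n = 2), whose range overlaps that of the next group, transient CD8 cells (11.94 ± 0.03, n = 3), and lowest in stimulated CD8 cells of day 2 (5.62 ± 0.19, n = 3), 1.54 below stimulated CD4 cells with no overlap. S1pr1 ran from 10.64 ± 0.07 in unstimulated CD4 cells of day 5 to 6.12 ± 0.41 in stimulated CD4 cells of day 2, where the lowest 2 groups overlap. Ccr7 ran from 11.91 ± 0.18 in stimulated CD8 cells of day 2, separate from the next group, to 8.73 ± 0.11 and 8.79 ± 0.82 in the continuously stimulated CD4 and CD8 groups, which overlap. Lef1 ran from 9.51 ± 0.32 in unstimulated CD4 cells of day 5, separate from the next, to 6.32 to 6.59 in the 4 day 2 groups, whose ranges overlap from each to the next. These means include the third unstimulated arrays. The lowest, 6.32 in unstimulated CD8 cells, includes the third array at 3.90, while the first and second read 7.39 and 7.66, above every stimulated day 2 array. Klf3 ran from 9.81 ± 0.08 to 6.87 ± 0.20 and Foxo1 from 11.29 ± 0.35 to 9.78 ± 0.59, both from unstimulated CD4 cells of day 5 to stimulated CD4 cells of day 2.

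Probe sets of 1 gene did not always move together. The main Klf3 probe set, 1429360_at, fell by 0.74 in transient against unstimulated CD4 cells, whereas 1421604_a_at fell by 1.96 (adjusted p = 4.38e-05 over all probe sets) and 1431630_a_at was at -0.18 with no call. In continuous against transient CD4 cells 1421604_a_at rose by 1.16 (adjusted p = 0.000481), while the main probe set was at -0.32. This probe set read 5.76 and 6.05 in transient and 7.78 and 7.94 in unstimulated CD4 cells, so that it followed Klf2, S1pr1 and Lef1 rather than the main Klf3 probe set. For continuous against transient CD8 cells all 3 Klf3 probe sets fell and were called, by 0.57 to 1.23. For continuous against unstimulated CD8 cells 1421604_a_at was at 0.14 and 1431630_a_at at -0.32, neither called, against -0.95 for the main probe set. In CD4 cells they were at -0.80 (adjusted p = 0.0117 over all probe sets) and at -0.34 with no call. Foxo1 was represented by 1416983_s_at. The other probe sets 1416981_at and 1416982_at differed in direction in transient against unstimulated CD8 cells (0.90, adjusted p = 0.00374, and -0.50, adjusted p = 0.0608), and 1456529_at read between 4.40 and 7.09 with no call in these 8 comparisons. Of the 4 Foxo1 probe sets, 3 fell in continuous against transient CD8 cells (-1.24, -1.15 and -0.56).

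**Figure D5:**
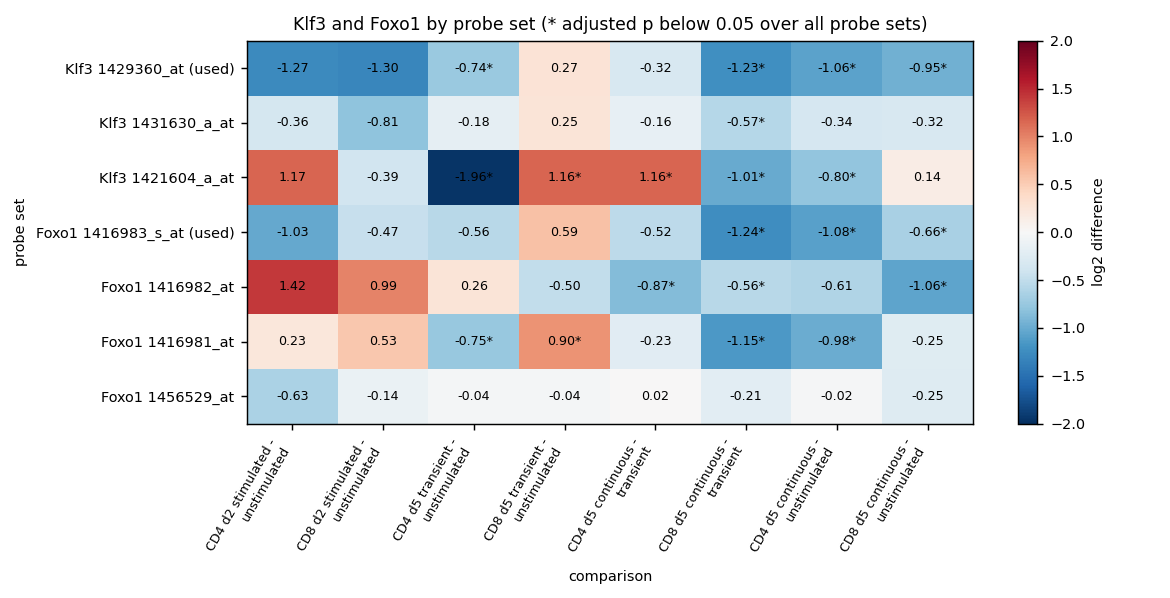
Log2 difference (colour and number) for each probe set of Klf3 and Foxo1 (rows) in 8 comparisons (columns), with an asterisk where the adjusted p over all probe sets is below 0.05. On day 2 in CD4 cells the Klf3 probe set 1421604_a_at (1.17) and the Foxo1 probe set 1416982_at (1.42) lie above 0 and the ones used below it (-1.27 and -1.03), none with a call, and all 3 Klf3 probe sets are below 0 for continuous against transient CD8 cells.

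Genes that work with the 6 were followed in lists chosen with earlier results known. Of 23 further quiescence and naive-state factors measured, 1 rose and 14 fell in continuous against transient CD8 cells, where 13.6% of all genes rose and 13.6% fell, with a median of -1.02 where that of all genes was -0.05. Il7r, the receptor for IL7, fell by 3.66, Txnip, an inhibitor of glucose uptake, by 2.13 and Tsc22d3, a glucocorticoid target, by 1.64. In continuous against unstimulated cells 1 of 23 rose and 9 fell in CD4 cells (median -0.52), where 9.92% of all genes rose and 10.8% fell (median -0.02). In CD8 cells 2 rose and 14 fell (median -0.98), where 21.4% of all genes rose and 25.9% fell (median -0.12). Il7r was at -4.12 and -3.55 in these comparisons. On day 2, 1 of 23 fell in CD4 cells, which was Il7r (-4.33), and in CD8 cells Il7r fell (-3.18) and Klf4, a relative of Klf2, rose (4.36); over all genes 0.718% fell in CD4 cells, and 0.863% fell and 7.49% rose in CD8 cells. Rbl2, which holds the cell cycle gene program shut, moved as Klf2 did, with the beta-actin difference: it fell by 2.13 in transient against unstimulated CD4 cells, rose by 2.41 in CD8 cells, and was 1.62 higher in continuous than in transient CD4 cells.

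Of 18 further homing, egress and retention genes, 9 rose and 2 fell in transient against unstimulated CD8 cells (median 0.56, all genes -0.08), where 16.3% of all genes rose and 15.5% fell. In CD4 cells 2 rose and 3 fell (median -0.11, all genes 0.04), where 9.66% rose and 13.1% fell. Cxcr3, a receptor for inflammatory chemokines, was 4.95 higher in transient than in unstimulated CD4 cells and 1.91 higher in CD8 cells. Ccr9, the receptor for gut homing, fell from 10.30 to 4.44 in CD8 cells (-5.87). Cxcr4, a receptor that retains cells in bone marrow and lymphoid tissue, fell with stimulation on day 2 in CD4 cells (-4.73) and was 2.41 higher in continuous than in transient CD8 cells. Of 15 genes of the signalling that acts on Foxo1, 1 rose on day 2 in CD4 cells and 2 in CD8 cells, Ywhah, a 14-3-3 protein that holds Foxo1 in the cytoplasm, in both (2.44 and 2.22). These counts are near those of all genes, of which 10.7% and 7.49% rose. In continuous against unstimulated CD8 cells 4 of the 15 rose and 6 fell, where 21.4% of all genes rose and 25.9% fell. Sgk1, a kinase that acts on Foxo1, was at -2.30 and Akt1 at 1.23.

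The genes most like each member in level were found as the 3 with the highest correlation over the 16 day 5 arrays. For Klf2 they were Atp1b3 (r = 0.957), Saraf (0.945) and Atxn7l3 (0.939), and for S1pr1 Kctd2 (0.945), Stat5b (0.932) and Foxj3 (0.928). Lef1 was closest to Polg2 (0.928), Ldb1 (0.916) and Vamp2 (0.911). Ccr7 was closest to Rabac1 (0.963), Zbtb20 (0.962) and Galnt10 (0.955), Klf3 to Smad7 (0.942), Napg (0.942) and Otulinl (0.938), and Foxo1 to Klf13 (0.962), Tecpr1 (0.956) and Tbc1d17 (0.956). On the 10 day 2 arrays without the third unstimulated ones the same 18 pairs ran from -0.666 (Zbtb20 with Ccr7) to 0.925 (Otulinl with Klf3), and on all 12 from -0.458 (Rabac1 with Ccr7) to 0.931 (Otulinl with Klf3). Kctd2 was close to S1pr1 there too (0.918), whereas Stat5b was at -0.398 and all 3 genes near Ccr7 were negative. All of these are descriptions over arrays that share their groups.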

How the data were processed

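RNA of 28 sorted T cell samples was hybridised to Affymetrix Mouse 430A2 arrays. The deposited values are log2 signals of 22690 probe sets, summarised with RMA per the submitters' processing notes, whose version is not given in the sources used here. Names came from the platform annotation, updated by Entrez ID through RefSeq (GRCm38.p6): 20380 probe sets had 1 symbol (20351 matched by ID), 691 several, 1555 none, and 64 were controls. The probe set with the highest mean represented each of the 12393 genes (4956 had several). No filter on low values was set, so all 6 genes were tested.

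Day 2 (12 arrays) and day 5 (16 arrays) were fitted separately with limma 3.58.1 in R 4.3.3, and p-values were adjusted by Benjamini-Hochberg over all genes, with 0.05 as the threshold. The fit was tested on simulated data. The members, lists and tests were chosen with earlier results of these data known. Besides the 6 genes, the text names up to 3 called genes per list and comparison with the largest change, and the 3 genes most correlated with each member.

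Replicate numbers could pair samples only from the data: for transient against unstimulated CD8 cells, deviations of same-numbered arrays correlated at 0.498, 0.358 and 0.149, and for continuous against unstimulated CD4 cells at 0.423 and 0.283 over 2 shared numbers. Alternatives covered the mean of a gene's probe sets, adjustment over all probe sets, a filter, scaling, weights and moderation. They also covered the replicate block, the arrays fitted, leaving out arrays, and a beta-actin covariate added after seeing the data. The number of arrays limits the precision. No image was read, so background and scanning could not be checked.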

Additional observations from a re-analysis of the deposited data

Results flagged for a closer look

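For 9 results the change of a gene in CD8 cells and in CD4 cells under the same contrast differed by a limma interaction test, adjusted by Benjamini-Hochberg. For transient against unstimulated cells the CD8 effect minus the CD4 effect was 2.99 for Klf2 (adjusted p = 3.58e-06), 3.87 for S1pr1 (3.17e-06), 3.80 for Lef1 (3.44e-05), 1.01 for Klf3 (0.0177) and 1.15 for Foxo1 (0.0169). For continuous against transient cells it was -2.23 for Klf2 (0.000159), -2.92 for S1pr1 (0.000134) and -0.91 for Klf3 (0.042). For continuous against unstimulated cells it was 2.44 for Lef1 (0.0023). The values of Klf3 and Foxo1 are those of their main probe sets. For transient against unstimulated cells the Foxo1 probe set 1416982_at was at -0.76 and the Klf3 probe set 1431630_a_at at 0.43, neither called. In the same contrast 1416981_at of Foxo1 (1.66) and 1421604_a_at of Klf3 (3.11) were called. In Klf2, S1pr1 and Lef1 every transient CD4 array lay below every unstimulated one, and every transient CD8 array lay above every unstimulated one. All 3 contrasts use either transient CD4 or unstimulated CD8 arrays, and with the beta-actin difference as a covariate none of the 9 was called. No group had more than 3 arrays, so single arrays were not tested as outliers within their group.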

How the results depend on the processing

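Over 1746 alternative values, 1513 kept their direction and side of the threshold and 69 changed sign. Of the rest, which kept their sign, 110 lost a call and 54 gained one. Some of the 69 also lost or gained a call. The 1513 include 96 that used the same probe set with p adjusted over all probe sets, whose differences could not change. The mean of probe sets likewise could not change the difference of a gene with 1 probe set. Klf2 on day 2, and Ccr7 and Klf3 in continuous against unstimulated cells, kept their direction under every alternative run. No alternative put another single probe set in place of the main one of Klf3. In CD8 cells its probe set 1421604_a_at was at 0.14 and 1431630_a_at at -0.32 in that comparison, neither called. Depth is not given by arrays: 2 or 3 arrays a group, 2 unstimulated and 2 transient CD4 arrays on day 5 above all, set the precision, and leaving 1 of them out leaves a lone array assumed to vary like the other groups.

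The number of genes called out of the 6 changed as follows. In 1 fit of all 28 arrays it was 1, 0, 2, 2, 1 and 0 for CD4 and CD8 transient against unstimulated, continuous against transient and continuous against unstimulated, 3, 1 and 0 for the differences between cell types in these contrasts, 1 between unstimulated and 0 between continuous CD8 and CD4 cells. With array weights it was 6 for CD8 day 2, 3 for CD8 continuous against unstimulated, 5 for the difference between cell types in continuous against transient, 2 between stimulated and 2 between continuous CD8 and CD4 cells. With the beta-actin covariate it was 5 for CD4 day 2 and 0 for both transient comparisons, CD4 continuous against transient, CD8 continuous against unstimulated, the differences between cell types on day 5 and CD8 against CD4 in unstimulated and transient cells. Median centring gave 4 for CD4 day 2. Fits of only the groups compared gave 1 for CD8 day 2, 2 for CD8 continuous against unstimulated, 2 for the cell type difference in it and 1 between stimulated cells. Quantile normalization gave 4 for CD4 and 5 for CD8 day 2, 3 for CD8 continuous against unstimulated and 1 between stimulated cells. Without the third unstimulated arrays it was 4 and 5 on day 2, 1 for their difference and 1 between stimulated cells. Leaving out 1 array at a time gave 2 to 2 and 1 to 3 for CD4 and CD8 day 2, 3 to 3 and 3 to 4 for transient against unstimulated, 3 to 4 and 4 to 5 for continuous against transient, and 3 to 5 and 2 to 5 for continuous against unstimulated. For the differences between cell types it gave 0 to 0, 3 to 5, 2 to 5 and 1 to 2, and for CD8 against CD4 levels 0 to 0, 3 to 4, 2 to 4 and 0 to 1.

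The replicate block gave 2 for the cell type difference in continuous against unstimulated cells, adding Klf2 (0.85, adjusted p = 0.037). It also called Foxo1 in transient against unstimulated CD8 cells (adjusted p = 0.032) and between unstimulated cells (0.029), and lost Klf3 in transient against unstimulated CD4 cells (0.052) and in the cell type difference in continuous against transient (0.071), and Lef1 in continuous against transient CD4 cells (0.077). It changed no other call of a member. With crossed numbers in the CD4 transient comparison, 4 of the 6 and 1684 of all genes were called, against 2821 as reported.

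Signs changed as follows, and the cause was not tested. With array weights Lef1 was -0.20 and -1.20 on day 2 in CD4 and CD8 cells and -0.069 between continuous cells, where Ccr7 was -0.14, S1pr1 was -0.25 in the day 2 cell type difference, and Klf3 -0.016 in that of continuous against unstimulated and -0.040 between stimulated cells. With the beta-actin covariate Ccr7 was -3.65 and Lef1 -4.77 in CD4 day 2, -0.16 and -2.93 in CD8 day 2. In CD8 transient against unstimulated S1pr1 was -0.21, Ccr7 0.046 and Lef1 -0.18, in CD4 continuous against transient S1pr1 -0.85, Lef1 -1.22 and Foxo1 0.71, and in CD8 continuous against unstimulated Klf2 -0.16, Lef1 -0.97 and Foxo1 0.38. In cell type differences Klf3 was 1.76 and Lef1 1.83 on day 2, Ccr7 -0.025 and Lef1 0.43 for continuous against transient and S1pr1 -0.64 for continuous against unstimulated. Between CD8 and CD4 cells Lef1 was 0.35 when stimulated and -0.014 when continuous, and S1pr1 -0.033, Ccr7 0.094 and Lef1 -0.44 when transient. The mean of probe sets gave Foxo1 0.23 in CD8 day 2, Klf3 0.23 in CD4 continuous against transient and Klf3 -0.051 between stimulated cells. Median centring gave Lef1 -0.13 and -0.30 on day 2. Quantile normalization gave Ccr7 -0.17 and Lef1 -0.27 in CD4 day 2, Lef1 -0.25 in CD8 day 2, Klf3 0.13 and Lef1 0.016 in their difference, Klf3 -0.054 in the cell type difference in continuous against unstimulated and Lef1 -0.020 between continuous cells. Without the third unstimulated arrays Lef1 was -0.09 and -1.12 on day 2 and S1pr1 -0.15 in the difference. Leaving out 1 array at a time gave both signs in the day 2 cell type difference for Klf3 (-1.20 to 0.76), Lef1 (-1.37 to 0.51) and S1pr1 (-0.23 to 0.79), between stimulated cells for Klf3 (-0.044 to 0.15), and on day 2 for Lef1 in CD4 (-0.09 to 0.77) and CD8 cells (-1.12 to 0.76). On day 5 it did so for S1pr1 in CD8 continuous against unstimulated (-0.24 to 0.081), Ccr7 in the cell type difference in continuous against transient (-0.21 to 0.59), Klf3 in that of continuous against unstimulated (-0.051 to 0.24), and Ccr7 (-0.39 to 0.40) and Lef1 (-0.11 to 0.17) between continuous cells.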
